A study of Rattus norvegicus with 10 samples.

Results

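The NMDA receptor is the channel that MK-801 blocks, and the genes described here are the 5 that encode its GluN1 and GluN2 subunits and 2 that encode partners on the postsynaptic side, 7 of the 30560 genes in the table of counts. They were chosen by identifier, for their known function: Grin1 (ENSRNOG00000011726), Grin2a (ENSRNOG00000033942), Grin2b (ENSRNOG00000008766), Grin2c (ENSRNOG00000003280), Grin2d (ENSRNOG00000021063), Dlg4 (ENSRNOG00000018526) and Camk2a (ENSRNOG00000018712). The files list identifiers without symbols, so the symbols are those given with this choice of genes. All 7 passed the filter on low counts, which kept 16137 genes.

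The RNA came from the prefrontal cortex (PFC) of 10 male wild-type SD rats, aged 21 days on arrival and kept for 1 week before the injections began. The MK-801 group (5 rats) was given intraperitoneal MK-801 at 0.2 mg/kg for 2 weeks, and the control group (5 rats) was given 0.9% saline in the same way. Each rat gave 1 library, and the sources used here do not state the interval between the last injection and the collection of tissue. The libraries held between 24334589 and 30824539 counts, with overlapping ranges in the groups. The 10 most abundant genes took 6.0% to 10.9% of the counts in the control rats and 5.86% to 7.05% in the MK-801 rats. This share is given again beside the results that change when it is a covariate. Levels are given as CPM, in which each count is divided by the TMM-scaled size of its library. Since PFC tissue holds many cell types, fewer cells of a type and less RNA per cell cannot be told apart.

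NMDA receptors are glutamate-gated cation channels of 4 subunits that open only when glutamate and a co-agonist are bound and depolarization has expelled magnesium from the pore. Each receptor contains GluN1, encoded by Grin1, and usually GluN2 subunits, which set how fast the channel closes and how strongly magnesium blocks it. GluN2B dominates in the young forebrain and GluN2A joins it as the cortex matures, whereas GluN2C is found in cerebellar granule cells and, in the forebrain, in astrocytes and some neurons, and GluN2D mainly in interneurons of the cortex. PSD-95, encoded by Dlg4, anchors the receptor in the postsynaptic density, and the calcium that enters activates CaMKII, whose alpha subunit Camk2a encodes. MK-801 enters the open channel and blocks it.

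By mean level, the GluN2 subunit genes differed in direction. Grin2b and Grin2a lay higher in the MK-801 group, by 41.5% and 39.2%, and Grin2c lay lower, with a change of -22.0%, whereas Grin1 differed by -1.58%. In edgeR's quasi-likelihood test these 3 differences passed an unadjusted threshold of 0.05, as did 13.9% of all genes tested. With the share held by the 10 leading genes as a covariate, Grin2b alone still passed it, as did 4.82% of all genes. That share was higher in every control rat but replicate 5 than in any MK-801 rat. The covariate and the treatment can therefore not be fully told apart. After Benjamini-Hochberg adjustment over the 16137 genes, 0 of the 7 had an adjusted p-value under 0.05, as did 0% of all genes. In DESeq2, 1 of the 7 had one, Grin2b, as did 0.444% of all genes it tested, and in limma-voom 0 had one, as did 0% of all genes. The DESeq2 share is over 23893 genes, since that fit was run without the filter on low counts. It is therefore not on the same base as the other shares.

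**Figure D1:**
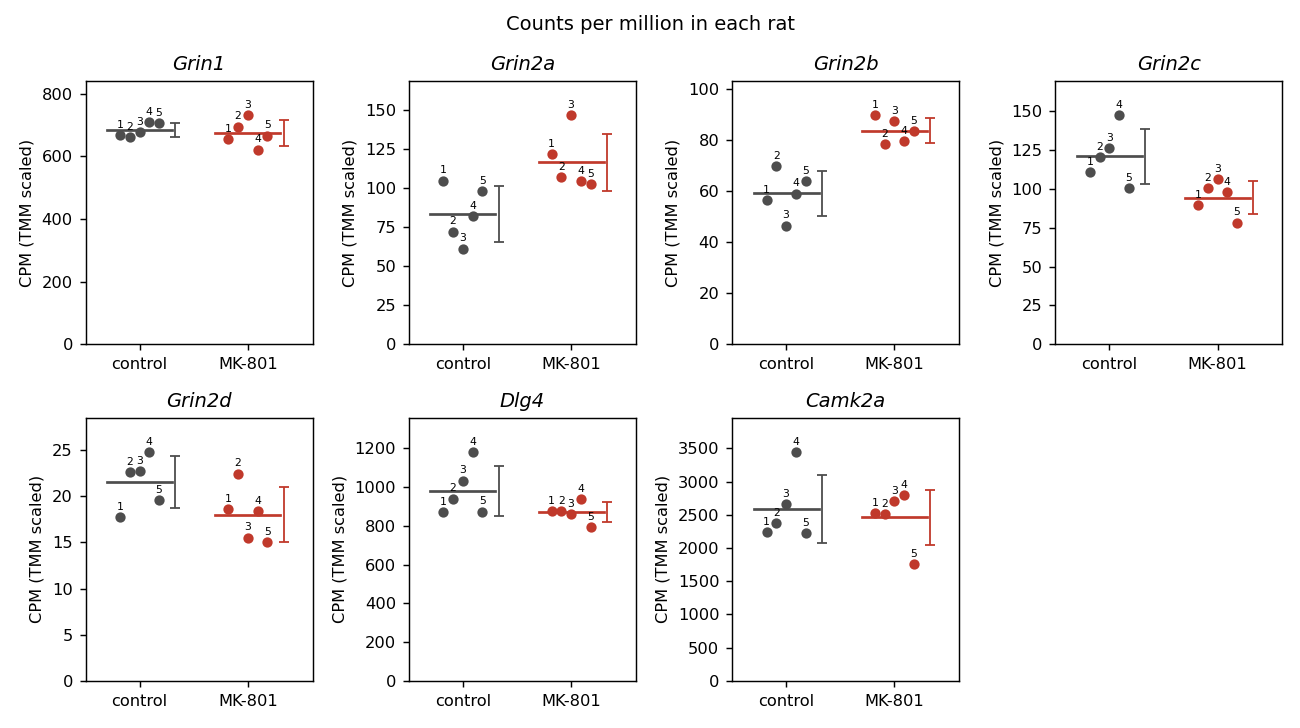
CPM (vertical axes, from 0) of each of the 7 genes in the 5 control rats (grey) and the 5 MK-801 rats (red). Points are rats, labelled with their replicate number, horizontal lines are group means and bars show 1 SD. The groups are apart for Grin2b, with 46.6 to 69.9 CPM in the control group and 78.4 to 89.7 CPM in the MK-801 group, and overlap in the other 6 genes.

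Grin1, the subunit that every NMDA receptor needs, had 669, 661, 678, 710 and 707 CPM in control replicates 1 to 5 and 654, 696, 731, 622 and 667 CPM in MK-801 replicates 1 to 5. The MK-801 rats covered the whole range of the control rats and went beyond it at both ends. The group means were 685 ± 22.5 CPM (SD, n = 5) and 674 ± 41.6 CPM (SD, n = 5). The log2 fold change was -0.02 (standard error 0.06, adjusted p = 0.876, edgeR), and its 95% interval ran from -9.54% to 7.08%. Grin1 had the smallest spread of the 7 genes in the control group, with a coefficient of variation of 3.29%.

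Grin2b, the GluN2B subunit, had 56.5, 69.9, 46.6, 59.0 and 64.0 CPM in control replicates 1 to 5. The MK-801 replicates had 89.7, 78.4, 87.3, 79.5 and 83.7 CPM. The groups did not overlap. The gap between the lowest MK-801 rat and the highest control rat was wider than the SD of the MK-801 group but narrower than that of the control group. The means were 59.2 ± 8.72 CPM (SD, n = 5) and 83.7 ± 4.88 CPM (SD, n = 5), a log2 fold change of 0.50 (standard error 0.09). Its unadjusted p-value in edgeR's quasi-likelihood test was 0.000146, the 8th smallest of the 16137, with an adjusted p-value of 0.268. The two-sided exact permutation test gave p = 0.00794, below which this test cannot go with 5 rats per group. The DESeq2 log2 fold change was also 0.50, with an adjusted p of 0.00147, and over all settings tried the adjusted p ranged from 0.00147 to 0.916. Of all genes tested, 2.31% had groups that did not overlap, 1.10% with the MK-801 group higher and 1.21% with it lower. Grin2b was the only 1 of the 7.

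Grin2a, the GluN2A subunit, had 105, 72.2, 61.3, 82.1 and 98.1 CPM in control replicates 1 to 5 and 122, 107, 147, 105 and 103 CPM in MK-801 replicates 1 to 5. The groups overlapped through control replicate 1, at 104.9 CPM, which lay above MK-801 replicates 4 and 5. The highest value was that of MK-801 replicate 3, and the lowest that of control replicate 3, which was also the lowest rat for Grin2b. The means were 83.7 ± 18.0 CPM (SD, n = 5) and 117 ± 18.5 CPM (SD, n = 5), a log2 fold change of 0.48 (standard error 0.14, unadjusted p = 0.00624, adjusted p = 0.268, edgeR). The two-sided exact permutation test gave p = 0.0238. With the share of the 10 leading genes as a covariate, the log2 fold change was 0.29 and no longer passed the unadjusted threshold. With nearly the same fold change as Grin2b, Grin2a had a larger spread between rats, with a coefficient of variation of 21.5% against 14.7% in the control group and 15.8% against 5.83% in the MK-801 group. Higher levels in the MK-801 group at an unadjusted p-value under 0.05 were found in 6.90% of all genes tested, and in these 2 of the 7.

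Grin2c, the GluN2C subunit, went the other way. Control replicates 1 to 5 had 111, 120, 126, 147 and 101 CPM, and MK-801 replicates 1 to 5 had 89.5, 100, 106, 97.8 and 78.3 CPM. Control replicate 5 was the lowest control rat and lay below MK-801 replicate 3, and the other control rats lay above all MK-801 rats. The means were 121 ± 17.6 CPM (SD, n = 5) and 94.5 ± 10.9 CPM (SD, n = 5), a log2 fold change of -0.36 (standard error 0.10, unadjusted p = 0.00491, adjusted p = 0.268, edgeR). The two-sided exact permutation test gave p = 0.0159. With the same covariate as for Grin2a, the log2 fold change was -0.21 and no longer passed the unadjusted threshold. Lower levels at an unadjusted p-value under 0.05 were found in 6.95% of all genes tested, and in Grin2c alone of the 7.

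Grin2d, the GluN2D subunit, had the fewest counts of the 7 genes, 538 per rat on average, for which counting error alone gives a spread of 4.31%. Its levels were 17.7, 22.6, 22.7, 24.8 and 19.5 CPM in control replicates 1 to 5 and 18.6, 22.4, 15.5, 18.4 and 15.1 CPM in MK-801 replicates 1 to 5. MK-801 replicate 2 lay among the higher control rats and control replicate 1 among the MK-801 rats. The log2 fold change was -0.26 (standard error 0.12, unadjusted p = 0.0542, adjusted p = 0.370, edgeR), with a 95% interval of -30.1% to 0.375%. The unadjusted p-value lay so close to 0.05 that the choice of tool moved it across, to 0.0497 in DESeq2 and 0.0487 in limma-voom, both with the adjusted p above 0.3.

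**Figure D2:**
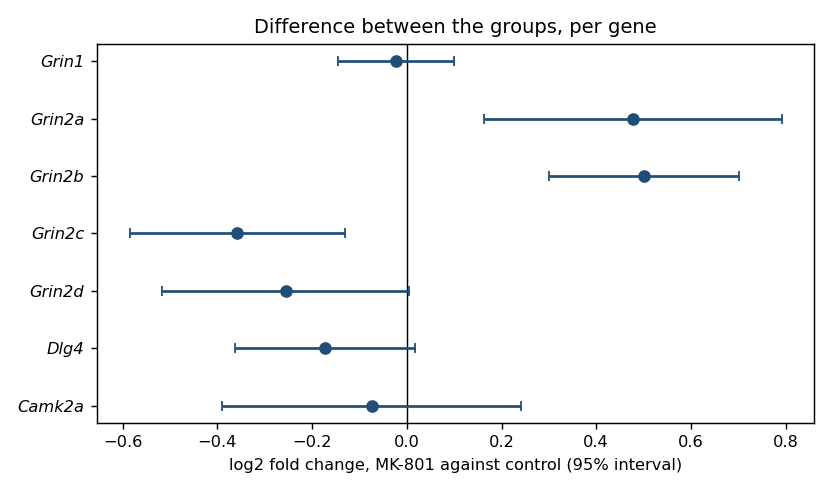
Log2 fold change, MK-801 over control (horizontal axis) for each of the 7 genes, with the 95% interval of edgeR's quasi-likelihood fit, 5 rats per group. The intervals of Grin2a and Grin2b lie above 0 and that of Grin2c below 0, and those of Grin1, Grin2d, Dlg4 and Camk2a include 0. The intervals are not adjusted for the number of genes tested.

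The counts of the GluN2 genes were also set against those of Grin1, without any scaling of the libraries. Both the library size and the length of the transcripts cancel when the ratio of the counts of a pair of genes is compared between rats, although the ratio itself does not say which gene is more abundant, since the counts were not divided by transcript length. Grin2b had 0.0846, 0.106, 0.0687, 0.0832 and 0.0905 counts per count of Grin1 in control replicates 1 to 5, and 0.137, 0.113, 0.119, 0.128 and 0.1255 in MK-801 replicates 1 to 5. These ranges did not overlap, as the CPM ranges of Grin2b alone did not, Grin1 having differed little. No test was set for the ratios to Grin1, and their non-overlap was not counted over other pairs of genes. The ratio of Grin2c to Grin1 averaged 0.177 ± 0.0244 (SD, n = 5) over control rats and 0.140 ± 0.0147 (SD, n = 5) over MK-801 rats, with overlap. For Grin2a to Grin1 these means were 0.122 ± 0.0259 (SD, n = 5) and 0.173 ± 0.0206 (SD, n = 5), and for Grin2d to Grin1 they were 0.0314 ± 0.00398 (SD, n = 5) and 0.0268 ± 0.00473 (SD, n = 5), both with overlap.

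The ratio of Grin2b to Grin2a, the pair whose balance shifts as the cortex matures, was the ratio set for a test. It was 0.539, 0.968, 0.760, 0.719 and 0.653 in control replicates 1 to 5 and 0.736, 0.733, 0.596, 0.760 and 0.816 in MK-801 replicates 1 to 5. No MK-801 rat fell outside the control range. On the log2 scale the groups differed by 0.02, with an SD of 0.31 for control rats and 0.17 for MK-801 rats (two-sided exact permutation test, p = 0.913). A shift between these subunits was therefore not detectable against this spread, both genes having been higher by about the same factor.

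The ratio of Grin2b to Grin2c was looked at after the values were seen and is given as a description. Control replicates 1 to 5 had 0.510, 0.581, 0.369, 0.400 and 0.636, and MK-801 replicates 1 to 5 had 1.00, 0.781, 0.821, 0.813 and 1.07. The means were 0.499 ± 0.114 (SD, n = 5) and 0.897 ± 0.129 (SD, n = 5), a difference of 0.87 on the log2 scale. Grin2b to Grin2d, also only described, ranged from 2.05 to 3.27 in control rats and from 3.49 to 5.63 in MK-801 rats, without overlap. The ratio of Grin2c to Grin2d, which both had lower means in the MK-801 group, was 5.64 ± 0.451 (SD, n = 5) and 5.33 ± 0.916 (SD, n = 5).

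**Figure D3:**
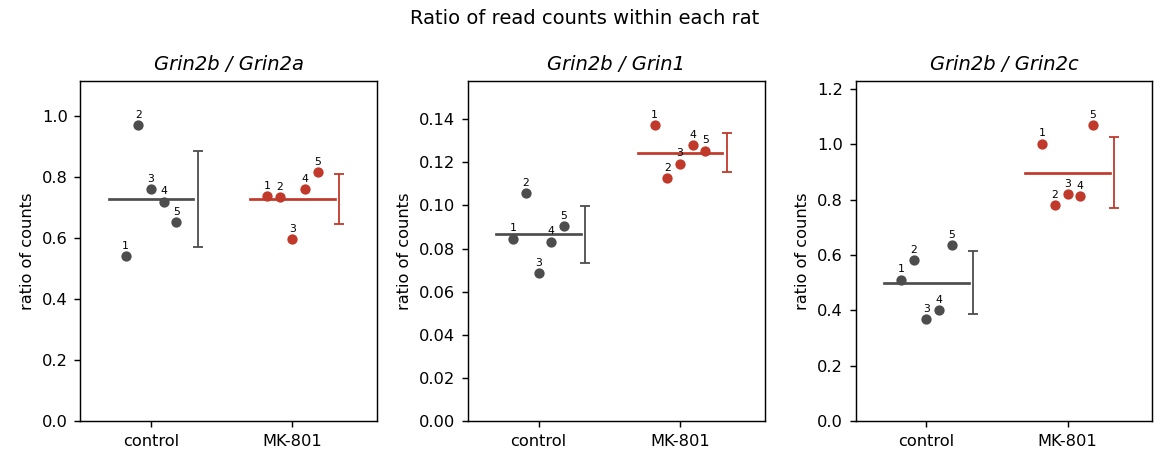
Ratio of the read counts of Grin2b to those of Grin2a, Grin1 and Grin2c within each rat (vertical axes, from 0), with points for rats, replicate numbers, lines for group means and bars for 1 SD. For Grin2b to Grin2a no MK-801 rat falls outside the control range, and for the other 2 ratios the MK-801 rats lie above all control rats.

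Of the postsynaptic partners, Dlg4 had 871, 941, 1034, 1181 and 874 CPM in control replicates 1 to 5. The MK-801 replicates had 878, 876, 861, 939 and 795 CPM. The MK-801 rats lay close together at the lower end of the control rats, among which replicates 3 and 4 stood higher. The means were 980 ± 130 CPM (SD, n = 5) and 869.8 ± 51.5 CPM (SD, n = 5), a log2 fold change of -0.17 (standard error 0.09, unadjusted p = 0.0700, adjusted p = 0.398, edgeR). The 95% interval ran from -22.2% to 1.15%.

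Camk2a, a kinase of excitatory forebrain neurons and one of the more abundant mRNAs of dendrites, had 2246, 2372, 2657, 3446 and 2230 CPM in control replicates 1 to 5. The MK-801 replicates had 2523, 2516, 2705, 2802 and 1756 CPM. Control replicate 4 was the highest rat and MK-801 replicate 5 the lowest, and the other 8 lay between 2230 and 2802 CPM. The log2 fold change was -0.07 (standard error 0.14, adjusted p = 0.846, edgeR), with a 95% interval of -23.6% to 18.2%. Its direction rested on either of these rats, being 0.05 without control replicate 4 and 0.03 without MK-801 replicate 5.

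**Figure D4:**
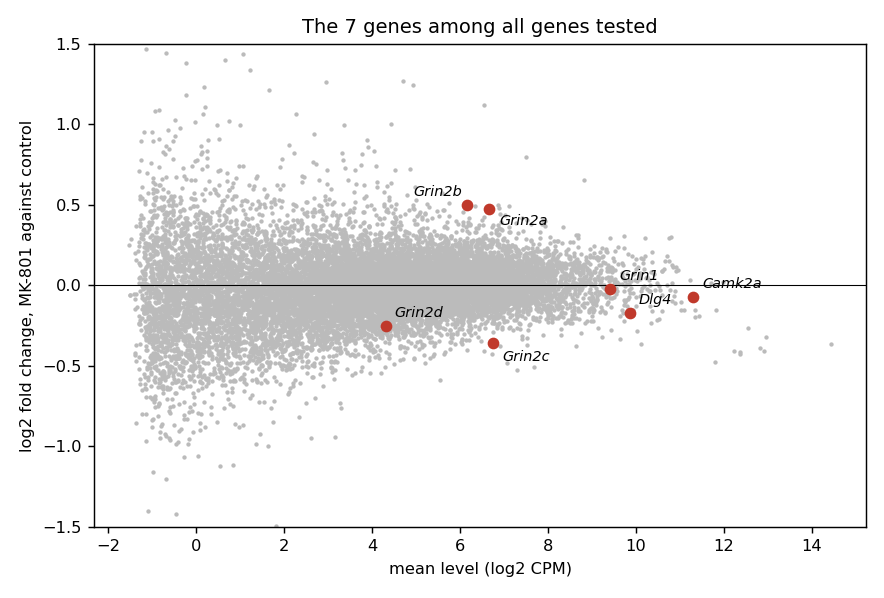
Log2 fold change, MK-801 over control (vertical axis) against the mean level in log2 CPM (horizontal axis) for the 16137 genes tested (grey) and the 7 genes (red); 16 genes with an absolute log2 fold change above 1.5 lie outside the axis. Grin2b, at 0.50, and Grin2a, at 0.48, lie above the bulk of the grey points of like level, Grin2c, at -0.36, lies below it, and Grin1 lies on the line of 0.

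Across the 7 genes, the median log2 fold change was -0.07, against -0.01 for all genes tested, since 2 genes were higher and 5 lower in mean. The median absolute log2 fold change was 0.26, against 0.11 for all genes. The extremes were unevenly spread over the rats. Control replicate 4 was the highest of the 10 rats in 4 genes, Grin2c, Grin2d, Dlg4 and Camk2a, and MK-801 replicate 5 was the lowest in the same 4. MK-801 replicate 3 was the highest in Grin1 and Grin2a, MK-801 replicate 1 in Grin2b, and control replicate 3 was the lowest in Grin2a and Grin2b. Without control replicate 4, Grin2c still had a lower mean in the MK-801 group, and over the fits that each left out 1 rat its log2 fold change ranged from -0.41 to -0.28. The corresponding ranges were 0.43 to 0.57 for Grin2b and 0.38 to 0.57 for Grin2a, each with an unadjusted p-value under 0.05 in all 10 fits. The 3 genes past the unadjusted threshold became 5 without control replicate 1, with Grin2d and Dlg4 added, where 15.3% of all genes passed it.

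The fraction of a library held by its 10 most abundant genes was set beside these results rat by rat, and no correlation with it was computed. Control replicate 3, lowest in Grin2a and Grin2b, had the highest share, 10.9%, followed by control replicate 4 with 8.77%, the rat highest in Grin2c, Grin2d, Dlg4 and Camk2a. MK-801 replicate 5 had the lowest share, 5.86%. Control replicate 2, with a share of 8.09%, had the highest Grin2b level of the control rats, 69.9 CPM. Its Grin2a level, 72.2 CPM, lay below all rats but control replicate 3, and its Grin2c level, 120 CPM, was the 3rd highest. MK-801 replicate 1 had the highest share of the MK-801 rats, 7.05%, and the highest Grin2b level of all 10 rats, 89.7 CPM. Control replicate 5 had a share of 6.0%, below all MK-801 rats but 1. Its Grin2b level of 64.0 CPM and Grin2a level of 98.1 CPM lay below all MK-801 rats. Its Grin2c level of 101 CPM and Dlg4 level of 874 CPM lay within the range of the MK-801 rats. These are values of 1 rat, and a part of the share in the differences between the groups was not tested. With this share as a covariate in edgeR, 1 of the 7 genes stayed past the unadjusted threshold, Grin2b, whose log2 fold change became 0.37 with a standard error of 0.09 (adjusted p = 0.916), against 4.82% of all genes. The standard errors of Grin2a and Grin2c were then 0.14 and 0.11.

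**Figure D5:**
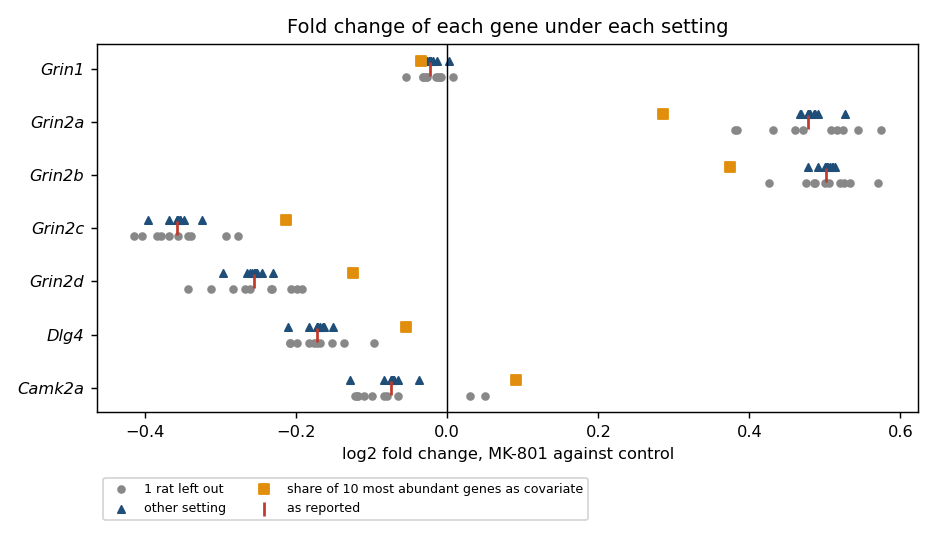
Log2 fold change, MK-801 over control (horizontal axis) for each gene as reported (red bar), with 1 rat left out (grey points), with the fraction held by the 10 leading genes as a covariate (orange square) and under the other settings (blue triangles). Grin2a and Grin2b stay above 0 and Grin2c, Grin2d and Dlg4 below 0 in all of them, and the covariate moves these 5 genes towards 0.

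Likeness to Grin1 was measured as Pearson's r of log2 CPM over the 10 rats. The 2 most similar of the other 16136 genes were ENSRNOG00000002895, with r = 0.931, and ENSRNOG00000025527, with r = 0.930, and Spearman's rho was 0.855 for both. These were picked for their r from all genes, so no p-value is given, and the files do not give their symbols. Neither differed between the groups beyond the spread, with adjusted p-values of 0.819 and 0.923 in edgeR. Since Grin1 itself differed little, genes chosen for likeness to it were unlikely to differ, so this adds no separate result. The highest of the other 6 genes was Grin2c, in place 2520 with r = 0.337 and rho = 0.479. Grin2b had r = -0.124 and Grin2a r = 0.167.

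Calcium entry through NMDA receptors is known to reach the nucleus through CREB, which binds the CRE sequence TGACGTCA or its core TGACG. The 250 bases ahead of the RefSeq transcript start (GRCr8) are given for Grin1 and Grin2c, 5′ to 3′ on the strand of the gene. Of the 7 genes, Grin1 had the least change, and Grin2c was the only lower one past the unadjusted threshold. The core on either strand is in capitals. The promoter table held 5 of the 7 genes, without Grin2a and Grin2b. These windows are in GRCr8 whereas the reads were aligned to mRatBN7.2, and Grin2c has transcripts that start further upstream.

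Grin1, chr3:28528755-28529004, minus strand: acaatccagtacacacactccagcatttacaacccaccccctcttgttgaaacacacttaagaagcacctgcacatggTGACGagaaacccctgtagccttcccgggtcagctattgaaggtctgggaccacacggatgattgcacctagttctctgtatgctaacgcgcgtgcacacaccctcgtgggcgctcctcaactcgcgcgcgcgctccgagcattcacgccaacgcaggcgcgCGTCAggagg
Grin2c, chr10:101005139-101005388, minus strand: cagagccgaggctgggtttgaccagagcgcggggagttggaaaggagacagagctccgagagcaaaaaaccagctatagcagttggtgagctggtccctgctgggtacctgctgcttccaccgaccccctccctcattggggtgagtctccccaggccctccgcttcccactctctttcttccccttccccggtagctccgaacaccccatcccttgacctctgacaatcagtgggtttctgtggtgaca

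The Grin1 window held the core 2 times and the Grin2c window 0 times, and neither held the full CRE. Camk2a also held the core 2 times, and Grin2d and Dlg4 0 times. Of 33469 windows of the same length, 18.22% held the core and 1.59% the full CRE, which contains the core. A GC box, GGGCGG on either strand, was in 0 of the 5 windows and in 30.47% of all. The GC content was 57.6% for Grin1 and 59.6% for Grin2c, against a median of 51.2%. These letters are a description of the windows, and binding was not measured.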

How the data were processed

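Per the methods and the submitters' processing notes, the authors aligned reads to mRatBN7.2 (HISAT2 2.2.1, with SAMtools 1.15.1) and assigned them to Ensembl genes with featureCounts of Subread 2.0.1. The values the authors deposited are raw counts per gene and rat. The strand setting and the handling of reads with several matches are not given in the sources used here, so genes with overlapping neighbours may share reads. Reads shared by the Grin2 paralogs were not checked.

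Differences were fitted in R 4.3.3 with edgeR 4.0.16. filterByExpr (minimum count of 10, minimum total of 15) kept 16137 of 30560 genes, libraries were scaled by TMM, and the two-sided quasi-likelihood test was run on every gene, with Benjamini-Hochberg adjustment over all genes. Standard errors were derived from F statistics. Single values were tested with exact permutation tests, and ratios used 0.5 added to each count. The alternatives were DESeq2 version 1.42.0, limma-voom (limma version 3.58.1), RLE and upper quartile scaling, no filter, a filter at a mean of 10, a replicate block, the share of the 10 most abundant genes, 1 surrogate variable (sva version 3.50.0), a larger prior count (2), and rats left out. The main edgeR fit, DESeq2 and limma-voom were also run on simulated data, and the other alternatives were not.

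The 7 genes, lists and alternatives were chosen with earlier results of these data known. The genes named are these 7 and the 2 most correlated with Grin1. Lists of other glutamate receptor, postsynaptic and cell type marker genes, planned by symbol, were not analysed here, since the RefSeq table (GRCr8) matched 0 of the 30560 identifiers. The tissue was therefore not checked against markers. Nothing in the labels says that the rats were handled in batches, and p-values set the difference between the groups against the spread between these rats.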

Additional observations from a re-analysis of the deposited data

Results flagged for a closer look

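In 1 of 16 groups of 5 rats checked (both groups of the 7 genes and of the ratio of Grin2b to Grin2a), a rat lay apart, with a gap to its nearest neighbour above 0.71 of the range of the group on the log2 scale. Chance gives about 1 in 20 such groups. The rat was MK-801 replicate 5 in Camk2a, at 1756 CPM with a gap of 0.770 of the range, while the other MK-801 rats had 2516 to 2802 CPM. The same rat was the lowest of all 10 in Grin2c, Grin2d and Dlg4, where its gap stayed below that limit.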

How the results depend on the processing

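The direction of Grin2a, Grin2b, Grin2c, Grin2d and Dlg4 was the same under all 21 settings, and Grin2b kept an unadjusted p-value under 0.05 in all of them, while Grin2a and Grin2c lost theirs with the abundant-gene share as a covariate alone. With that covariate, 1 of the 7 genes passed the unadjusted threshold, against 3, and Camk2a turned to 0.0914. DESeq2 gave 1 gene with an adjusted p-value under 0.05, against 0, and edgeR gave 0 in each fit that left out 1 rat, as did all other settings. With 1 rat left out, 3 to 5 genes passed the unadjusted threshold. The share of all genes that passed it ranged from 9.01% (without control replicate 3) to 20.2% (without control replicate 5). In these fits Grin1 ranged from -0.0541 to 0.0070 and Camk2a from -0.122 to 0.0503. Grin1 was above 0 without MK-801 replicate 4, at 0.0070, and with control replicate 5 and MK-801 replicate 1 both left out, at 0.0026. The log2 difference in the ratio of Grin2b to Grin2a, 0.02, ranged from -0.0818 (without control replicate 1) to 0.129 with 1 rat left out and was -0.0189 without both rats, always with an exact permutation p above 0.3. These signs change around differences far below the spread between rats. Apart from the rats left out, the cause of the changes was not tested.

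Same-numbered rats had a correlation over 0.1 in 3 of 5 pairs but not in all, with a range from -0.0489 to 0.319. The correlations of rats with different numbers were not summarised for comparison. The labels name no shared litter, batch or day, so the replicate numbers were not taken as pairs, although a pairing of some rats cannot be told from these values. With the replicate block, 5 of the 7 genes passed the unadjusted threshold, with Grin2d at -0.26 and Dlg4 at -0.17 added, and 0 passed the adjusted one, against 17.7% and 0% of all genes. The log2 difference in the Grin2b to Grin2a ratio was 0.02 with the block. Of the 5 control rats, 2 correlated best with the same-numbered MK-801 rat.

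Counting error was 0.381% to 4.31% at the mean counts of the 7 genes, below their spread between rats, so the number of rats and not the depth set the intervals. With 5 rats per group, adjusted p-values rest on the spread assumed by each tool.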
